A study of Mus musculus with 51 samples.

Results

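Day 4 of differentiation was compared with day 2 in C3H/10T1/2-SAM cells that had received a guide RNA for Pparg. The members are the 6 libraries of P day 4 and the 6 of P day 2, 12 of the 51 in the series, chosen by their column names, paired by the experiment number in the labels and described over all genes. The line is a mouse mesenchymal line, described by the submitters as pre-adipocytes, with 2 transgenes for gene activation, dCas9-VP64 (a Cas9 that cannot cut, with an activation domain) and MS2-P65-HSF1 (further activation domains that bind the guide). The guide RNA brings both to an endogenous gene. Cells of every group received 250 ng of plasmid in all and, 48 hours later, 5 µM of the PPARG agonist rosiglitazone, with day 0 at the time of the drug. P cells carried the Pparg guide plasmid, PY cells guide plasmids for Pparg and Ybx1, and EV cells an empty vector. The libraries used beside P were PY day 4 (6) and day 2 (5), and EV day 4 (6) and day 2 (6). Every group is thus the same engineered line and had received rosiglitazone before both days, and RNA came from whole cultures after a transfection. In such bulk samples, fewer cells of a type and less RNA per cell cannot be told apart.

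PPARG is the nuclear receptor that switches on the genes of fat cells, and rosiglitazone binds and activates it. Mesenchymal cells that turn into fat cells leave the division cycle, lower the programme of attached, spreading fibroblasts, and later build up the enzymes that make, store and release fat. Hormones such as adiponectin and adipsin come late in that course.

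Of 17015 genes tested, 3434 (20.2%) differed between P day 4 and P day 2 at a Benjamini-Hochberg adjusted p under 0.05 in the quasi-likelihood test of edgeR, with the experiment as a block. On day 4, 1691 genes (9.94%) were higher and 1743 (10.2%) lower, and 418 and 372 of them differed by more than 2-fold. Among those that passed, 1290 were higher and 1360 lower on day 4 in 6 of 6 experiments. The levels of all 6 day 4 libraries lay above all 6 day 2 libraries for 128 genes (0.752% of those tested) and below them for 103 (0.605%). The count that passed fell to 2143 without the P libraries of experiment 6, to 2185 without those of experiment 4, and to 217 when the experiment was left out of the model. The median log2 difference of all genes tested was -0.00584.

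Total counts were 16.03 to 24.96 M in P day 4 and 9.993 to 55.45 M in P day 2. Protein-coding genes took 80.3% to 95.6% of the counts on day 4 and 85.4% to 95.4% on day 2, and the P libraries of experiments 2 and 3 held the low values on both days. Counts of mitochondrial genes were 1.82% to 13.2% on day 4 and 2.36% to 8.64% on day 2. The experiment accounted for 67.5% and the day for 31.4% of the first principal component of the 12 libraries, which held 37.4% of their variance. P day 4 of experiment 1 stood apart on the third component (13.1% of the variance), at -64.12 against -7.8 to 18.04, and had the fewest genes detected, 19310 against 21400 or more in the others. Summed levels of 10 macrophage markers were 8.08 to 13.8 CPM (counts per 1 M counts of the scaled library) on day 4 and 8.64 to 13.5 CPM on day 2, and those of 11 epithelial markers were 1.34 to 6.63 and 1.42 to 12.02 CPM. Those of 10 endothelial markers were 21.1 to 48.6 CPM on day 4 and 4.95 to 32.8 CPM on day 2, and their part in the results was not tested. Summed levels of the preadipocyte and fibroblast list were 8752 to 16220 CPM on day 4 and 8416 to 11650 CPM on day 2. Those of the fat cell list were 5170 to 24040 and 4107 to 17610 CPM, so genes of both lists were detected on both days.

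Pparg, the gene the guide targets (ENSMUSG00000000440, GRCm38 chromosome 6, 115360951 to 115490399, plus strand), did not pass between the days. Its lowest, median and highest levels were 202, 209 and 370.3 CPM on day 4 and 182, 279 and 506 CPM on day 2. The fold was 0.823 (95% interval 0.592 to 1.14, adjusted p = 0.433, edgeR), and the groups overlapped. The level was higher on day 4 in 2 of 6 experiments. EV cells stood at 57.1 ± 15 and 56.5 ± 11.8 CPM on the same days, below every P library. Ybx1 (ENSMUSG00000028639, GRCm38 chromosome 4, 119277981 to 119294604, minus strand), an RNA- and DNA-binding protein with no guide in these cells, was at 579 ± 72.1 CPM on day 4 and 708 ± 68.7 CPM on day 2 (mean ± SD, n = 6 each). It was lower in 6 of 6 experiments but did not pass (0.814-fold, adjusted p = 0.106).

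**Figure D1:**
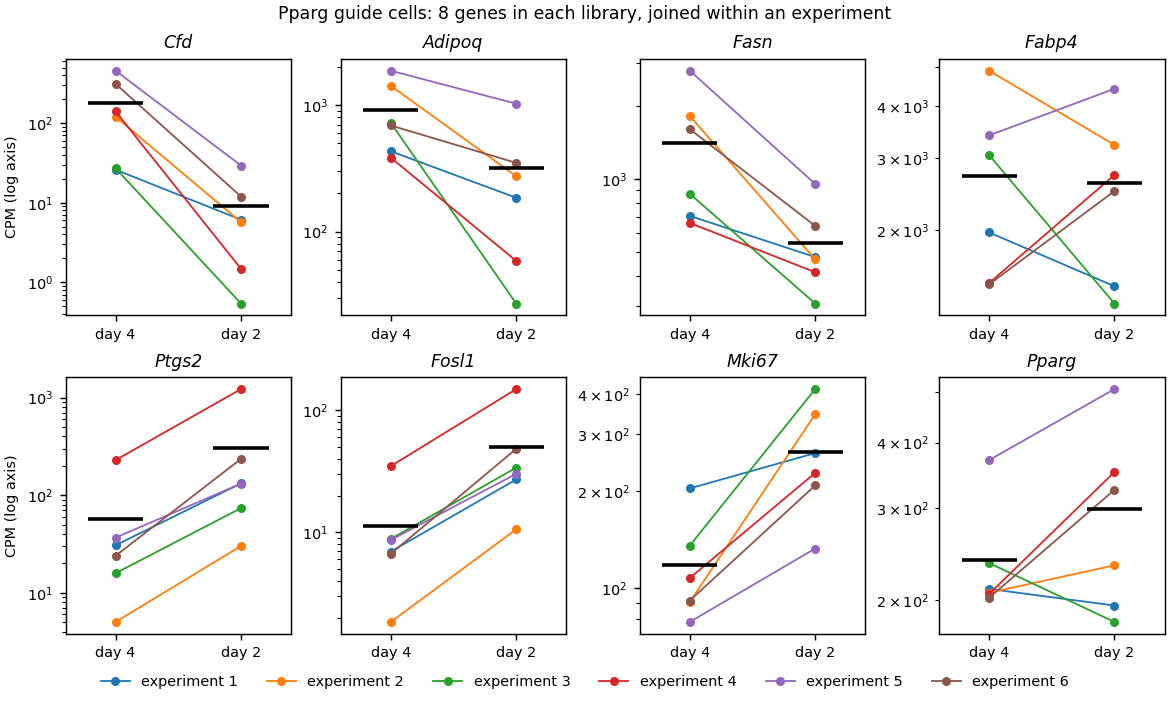
Levels of 8 genes in P libraries, in CPM on log axes, with day 4 left and day 2 right of each panel. Points are libraries, lines join libraries of an experiment and black bars are group means. Cfd, Adipoq and Fasn were higher on day 4 in 6 of 6 experiments, Ptgs2, Fosl1 and Mki67 lower in 6 of 6, and Fabp4 and Pparg went in different directions between experiments.

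Genes of cell division were lower on day 4. All 35 genes of the mitosis list passed as lower, against 10.2% of all genes, and each was lower in 6 of 6 experiments. Their log2 differences ran from -1.38 to -0.863, with a median of -1.13. Plk1 (ENSMUSG00000030867, GRCm38 chromosome 7, 122159439 to 122169873, plus strand), a kinase of mitotic entry and spindle assembly, had lowest, median and highest levels of 8.83, 18.6 and 31.9 CPM on day 4 and 38.7, 55 and 65 CPM on day 2. Every day 4 library was below every day 2 library, by 2.61-fold in the model (log2 -1.38 ± 0.19 (SE), adjusted p = 6.69e-06, edgeR). Foxm1, a transcription factor that drives mitotic genes, was at 15.5, 29.5 and 41.8 CPM on day 4 and 45, 68.8 and 93.1 CPM on day 2, again without overlap (2.47-fold lower, adjusted p = 7.83e-06). Ube2c, the ubiquitin-conjugating enzyme of the anaphase promoting complex, fell to 27.5 ± 10.6 CPM on day 4, against 59.9 ± 14.2 CPM on day 2 (adjusted p = 1.35e-05). Anln, a scaffold of the cleavage furrow, fell to 112 ± 54.6 CPM, against 248 ± 60.3 CPM (adjusted p = 1.86e-05). Mki67, the gene of the proliferation marker Ki-67, was at 78.6, 99.6 and 204 CPM on day 4 and 133, 245 and 414 CPM on day 2, 2.21-fold lower (adjusted p = 0.000121). Its groups overlapped, as the day 4 library of experiment 1 lay above the day 2 library of experiment 5, yet the level was lower on day 4 in 6 of 6 experiments.

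The promoters of 3 mitosis genes are shown because the letters they share recur in this list. CCAAT, the box bound by the factor NF-Y, and TTTGAA, the cell cycle homology region that is known from promoters silenced outside mitosis, are in capitals on either strand (their complements read ATTGG and TTCAAA). The sequences are RefSeq's, in build GRCm38.p6, 250 bases before and 50 after the start, written along the gene's strand. They lie at chr7:122159185-122159484 (plus strand) for Plk1, chr4:118437294-118437593 (minus strand) for Cdc20, which activates the anaphase promoting complex, and chr9:70421505-70421804 (minus strand) for Ccnb2, a B-type cyclin.
Plk1: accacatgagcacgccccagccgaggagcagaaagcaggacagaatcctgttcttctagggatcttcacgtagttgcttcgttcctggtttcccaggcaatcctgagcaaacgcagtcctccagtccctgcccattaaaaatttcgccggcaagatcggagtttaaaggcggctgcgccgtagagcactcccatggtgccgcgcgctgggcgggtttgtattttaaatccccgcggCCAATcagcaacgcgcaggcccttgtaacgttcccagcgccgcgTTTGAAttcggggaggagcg
Cdc20: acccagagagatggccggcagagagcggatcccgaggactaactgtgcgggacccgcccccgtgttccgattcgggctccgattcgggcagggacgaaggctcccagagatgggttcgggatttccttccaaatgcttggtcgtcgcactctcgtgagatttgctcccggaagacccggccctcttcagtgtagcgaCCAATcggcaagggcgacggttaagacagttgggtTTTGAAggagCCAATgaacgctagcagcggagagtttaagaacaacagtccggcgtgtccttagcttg
Ccnb2: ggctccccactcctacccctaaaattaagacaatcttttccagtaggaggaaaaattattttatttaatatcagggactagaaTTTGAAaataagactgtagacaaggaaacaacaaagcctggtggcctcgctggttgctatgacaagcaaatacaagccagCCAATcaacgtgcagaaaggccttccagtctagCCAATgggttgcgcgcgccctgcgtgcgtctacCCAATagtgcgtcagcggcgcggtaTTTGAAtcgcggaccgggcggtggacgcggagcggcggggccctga
Counted from 0 at the start, TTTGAA began at position 30 in Plk1, -18 in Cdc20 and 4 in Ccnb2, where an additional copy began at -167. Cdc20 was at 45.4 ± 27.9 CPM on day 4 and 88.2 ± 21.3 CPM on day 2 (adjusted p = 0.000784), and Ccnb2 at 20.7 ± 12.7 and 37.8 ± 6.99 CPM (adjusted p = 0.000824).

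Of the 35 mitosis genes, 27 had exactly 1 promoter in the table. CCAAT was in 19 of the 27 (70.4%) and TTTGAA in 19 (70.4%), and 16 (59.3%) held both. Over all 22862 genes with 1 promoter the shares were 38.2%, 18.5% and 7.21%. The DNA replication list differed in TTTGAA: 3 of its 29 promoters (10.3%) held it, and 17 (58.6%) held CCAAT. These are matches of letters and were not tested as sites. Among the 24 genes with the largest changes, described below, 8 of the 12 higher and 6 of the 12 lower had 1 promoter. TATAAA was in 2 of the 8 (25%) and 1 of the 6 (16.7%), against 14.8% of all promoters. AGGTCA, the core bound by many nuclear receptors, was in 1 of the 8 (12.5%), 0 of the 6 and 2 of 12 promoters of the fat cell list (16.7%), against 16.0% of all. Its direct repeat with 1 base between, the form PPARG binds with RXR, was in none of these sets and in 12 promoters (0.0525%) of all.

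DNA replication genes fell as well: 37 of 39 passed as lower and 0 as higher, with a median log2 difference of -0.761. Cdc45, part of the replicative helicase, had lowest, median and highest levels of 8.69, 14.1 and 24 CPM on day 4 and 22.7, 27.4 and 38.5 CPM on day 2. It was 2.02-fold lower (adjusted p = 7.83e-06) and lower in 6 of 6 experiments, with an overlap of the groups. Pole, the catalytic subunit of DNA polymerase epsilon, fell to 22 ± 4.85 CPM on day 4, against 43.3 ± 7.84 CPM on day 2 (adjusted p = 3.06e-05), with no overlap. Rfc5, of the clamp loader, and Uhrf1, which guides maintenance methylation, fell 1.66-fold and 2.19-fold. Rfc3 and E2f1 were the members that did not pass. Of 23 cell cycle inhibitors and p53 targets, 3 were higher and 3 lower, beside 9.94% and 10.2% of all genes tested. Cdkn1a, the inhibitor p21, was at 107 ± 25 CPM on day 4 and 114 ± 23.6 CPM on day 2 (adjusted p = 0.718). Without the P libraries of experiments 2 and 3, 29 mitosis and 19 replication genes passed. Leaving out any single P library or experiment left 35 mitosis genes and 34 to 38 replication genes passing.

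Levels on day 0 of the same P cells (n = 5) place these genes on a course, and both differences use the day 2 libraries. No P library of day 0 came from experiment 2. The means of days 0, 2 and 4, here and below, thus cover unlike sets of experiments. Plk1 averaged 26.6, 51.4 and 20.9 CPM on days 0, 2 and 4, and Mki67 129, 265 and 118 CPM. Day 2 was thus the highest of the 3 days for both, and the step up to it passed too (adjusted p = 5e-05 and 0.000301, edgeR).

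The 12 genes with the largest rises that passed, averaged at least 1 CPM and rose in 6 of 6 experiments were led by Cfd (ENSMUSG00000061780, GRCm38 chromosome 10, 79890853 to 79892655, plus strand), which encodes adipsin, the complement factor D that fat cells secrete. Its lowest, median and highest levels were 26, 130.2 and 456 CPM on day 4 and 0.54, 5.89 and 29.4 CPM on day 2, 19.8-fold higher (log2 4.31 ± 0.43 (SE), 95% interval of the fold 10.9 to 35.7, adjusted p = 2.53e-08, edgeR). The lowest day 4 library was below the highest day 2 library, which was that of experiment 5. On days 0, 2 and 4 Cfd averaged 0.157, 9.19 and 180.2 CPM. Cfd passed under every alternative tried.

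The others described here include genes of lipid and foreign-compound metabolism and stromal genes. Agmo, which cleaves ether lipids, was at 1.44, 2.33 and 8.05 CPM on day 4 and 0.178, 0.264 and 0.756 CPM on day 2, with no overlap (9.5-fold, adjusted p = 4.74e-05). Pi16, a secreted peptidase inhibitor known from adventitial fibroblasts, was at 2.85, 4.29 and 10.3 CPM on day 4 and 0.0703, 0.643 and 1.36 CPM on day 2 and did not overlap either (8.84-fold, adjusted p = 1.83e-05). All these genes were picked from the same values for large rises in every experiment, so their separation is not independent of that choice. Beside 0.752% of all genes tested with every day 4 library above every day 2 library, a further 4 genes had no overlap. They were Cyp2f2, a cytochrome P450 (8.31-fold), Steap4, a metalloreductase of fat cells (8.06-fold), and the carboxylesterases Ces1d (7.65-fold) and Ces1f (7.32-fold). The carboxylesterases are close relatives in a gene cluster, and how reads that match several genes were counted is not given, so the share of each is uncertain. Cox8b, a subunit of cytochrome c oxidase found in brown fat and muscle, rose 6.5-fold to 7.31 ± 4.94 CPM, against 1.36 ± 1.66 CPM on day 2 (adjusted p = 0.000452). Sult1a1, a phenol sulfotransferase, and H19, an imprinted long non-coding RNA, rose 6.18-fold and 6.11-fold. Ptchd1 rose 6.39-fold.

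**Figure D2:**
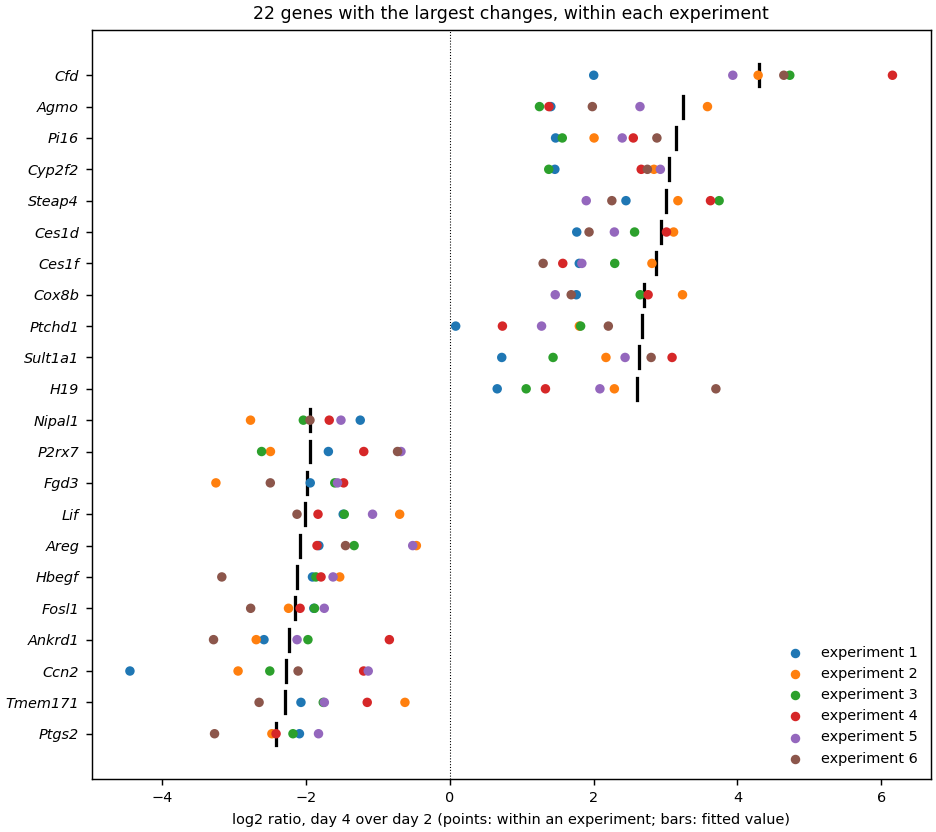
22 of the 24 genes with the largest changes that passed and moved the same way in 6 of 6 experiments. Points are log2 ratios of day 4 over day 2 within an experiment, with 0.5 added to each CPM, which moves scarce genes towards 0, and bars are the fitted log2 differences without that addition. The 11 higher genes shown lie right of 0 and the 11 lower genes left of it.

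The fat cell list rose in part. Of 29 members kept, 10 passed as higher and 0 as lower, against 9.94% of all genes higher, and the median log2 difference was 0.751. Adipoq, the gene of adiponectin, had lowest, median and highest levels of 383, 704 and 1862 CPM on day 4 and 27, 229 and 1022 CPM on day 2. It rose 3.62-fold (95% interval 1.6 to 8.21, adjusted p = 0.0252) and was higher in 6 of 6 experiments, though the groups overlapped widely. Slc2a4, the insulin-responsive glucose carrier GLUT4, was at 4.6, 14.9 and 59.4 CPM on day 4 and 0.432, 3.11 and 17.6 CPM on day 2 (4.68-fold, adjusted p = 7.59e-05), again with an overlap. Retn, which encodes the secreted factor resistin, rose 10.9-fold to 4.02 ± 5.36 CPM, against 0.278 ± 0.253 CPM (adjusted p = 0.000225), and was higher in 5 of 6 experiments. Agt, the precursor of angiotensin, and Adrb3, the beta-3 adrenergic receptor, rose 3.79-fold and 4.66-fold. The call of Adipoq was lost without P day 4 replicate 4 or 5, without P day 2 replicate 2, 3 or 4, without all P libraries of experiment 2, 3 or 4, and in DESeq2. Its adjusted p was 0.195 without those of experiments 2 and 3 together.

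Other classical fat cell genes did not pass. Fabp4, the fatty acid carrier aP2, had lowest, median and highest levels of 1479, 2512 and 4885 CPM on day 4 and 1329, 2610 and 4415 CPM on day 2, and was higher on day 4 in 3 of 6 experiments (1.11-fold, 95% interval 0.395 to 3.11, adjusted p = 0.919). Plin1, the coat protein of lipid droplets, was at 419 ± 257 CPM on day 4 and 284 ± 227 CPM on day 2 (1.6-fold, 95% interval 0.755 to 3.4, adjusted p = 0.406). Cidec, which makes droplets fuse, was at 523 ± 343 and 305 ± 308 CPM (2.02-fold, 95% interval 0.786 to 5.18, adjusted p = 0.312). Cebpa and Cebpb, transcription factors that act with PPARG, were at 54.9 ± 24.1 and 24.6 ± 10.2 CPM on day 4 and at 41.3 ± 24.4 and 19.1 ± 2.72 CPM on day 2, with adjusted p of 0.344 and 0.332. Over days 0, 2 and 4 Fabp4 averaged 136, 2609 and 2714 CPM and Plin1 0.696, 284 and 419 CPM, whereas Adipoq averaged 0.436, 319 and 916 CPM. Among 33 adipogenic transcription factors, 6 were higher and 2 lower, beside 9.94% and 10.2% of all genes tested. Klf15, a factor of late adipogenesis, was at 3.14 ± 1.71 CPM on day 4 and 1.63 ± 0.72 CPM on day 2 (1.88-fold, adjusted p = 0.0499), and its call was lost in 22 of 28 alternatives. Rxrg, a partner receptor of PPARG, rose 3.88-fold (adjusted p = 0.000335), and Klf5, a factor of early adipogenesis, fell 2.33-fold (adjusted p = 0.00848), a call lost without experiment 4. The count of higher factors was 3 without P day 2 replicate 2 or 3, or without experiment 2 or 4. Lep, the gene of leptin, reached at most 0.069 CPM in a P library of day 4 and 0.0813 of day 2 and was too scarce to test.

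Within experiments the fat cell list did not move evenly. Its median log2 ratio of day 4 over day 2 was 0.618, 1.52, 2.53, 0.842, 0.0974 and -0.124 in experiments 1 to 6. Experiments 2 and 3, with the largest shifts, are those with the low protein-coding shares, and the part of that share in the result was not tested. Without their P libraries 5 members passed as higher, and with them alone 8.

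**Figure D3:**
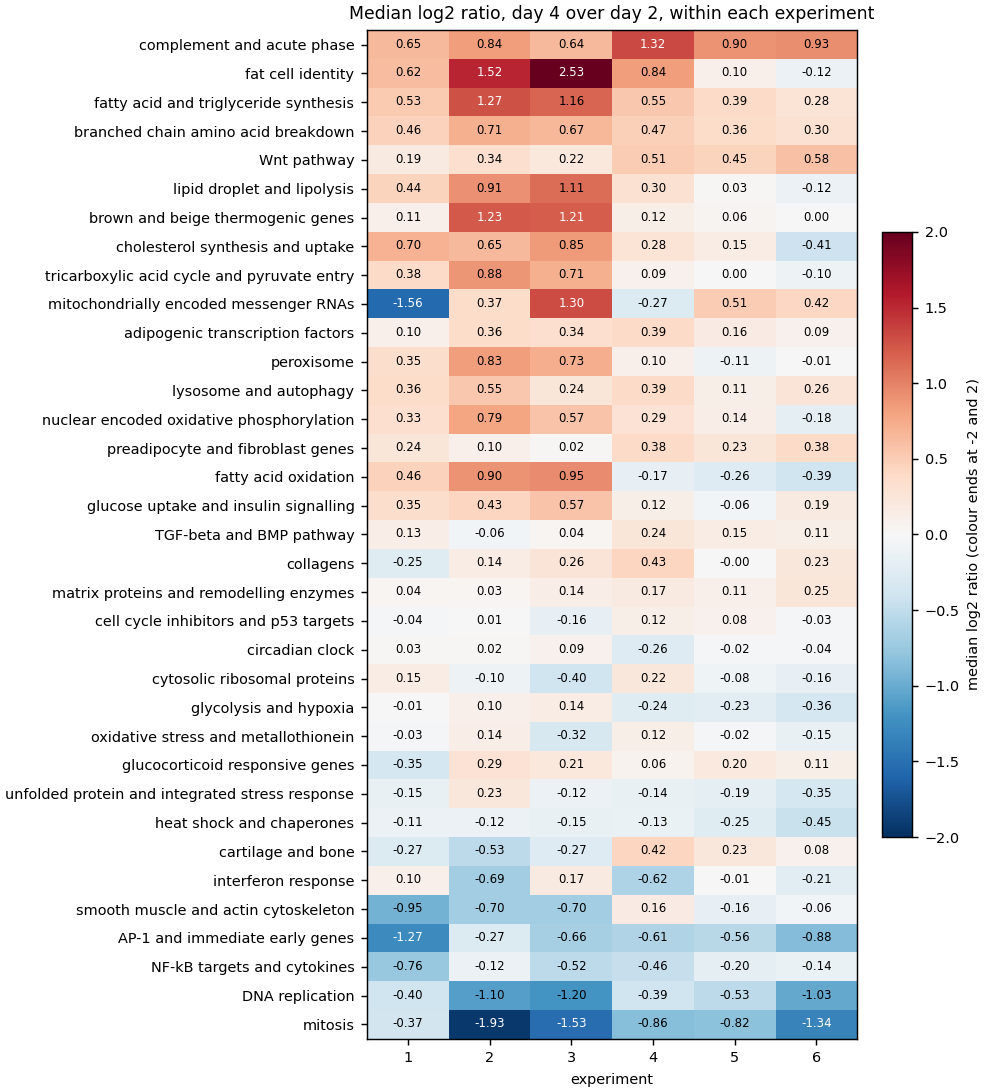
Median log2 ratio of day 4 over day 2 for each gene list (rows) within each experiment (columns), from levels with 0.5 CPM added. Red is higher on day 4 and blue lower. Mitosis and DNA replication are among the lists below 0 in all 6 experiments, as are AP-1, NF-kB and heat shock. Those above 0 in all 6 include complement, fatty acid and triglyceride synthesis, branched chain amino acid breakdown, Wnt, lysosome, matrix and thermogenic genes. The fat cell, thermogenic and oxidation lists are highest in experiments 2 and 3.

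Enzymes that make fatty acids and triglycerides rose as well. Of 26 genes, 15 passed as higher and 0 as lower (median log2 0.681), beside 9.94% and 10.2% of all genes tested. In 6 of 6 experiments 14 were higher. Fasn (ENSMUSG00000025153, GRCm38 chromosome 11, 120805846 to 120824547, minus strand), fatty acid synthase, had lowest, median and highest levels of 659, 1237 and 2797 CPM on day 4 and 307, 472 and 955 CPM on day 2, 2.55-fold higher (log2 1.35 ± 0.32 (SE), adjusted p = 0.00236). The groups overlapped, and experiment 5 was highest on both days. Scd1, the desaturase that makes oleate, rose 3.37-fold to 1399 ± 1440 CPM, against 414 ± 421 CPM (adjusted p = 0.00787). Fads2 and Fads1, desaturases of long polyunsaturated fatty acids, rose without overlap, Fads2 to 185 ± 25.5 CPM on day 4, against 118 ± 22 CPM on day 2 (adjusted p = 0.000118), and Fads1 to 398 ± 93.1, against 263 ± 42.9 CPM (adjusted p = 0.00022). Thrsp, a regulator of lipogenesis, rose 5.13-fold, and Elovl5, an elongase, 1.42-fold. Pck1, which supplies glycerol for fat, was at 27.3 ± 29.2 CPM on day 4 and 13.7 ± 11.3 CPM on day 2 and did not pass (adjusted p = 0.244). Without experiment 2 the count was 9, and without experiments 2 and 3 it was 6, with Fasn and Scd1 no longer passing.

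Cholesterol synthesis genes rose in 7 of 24 cases, beside 9.94% of all genes tested, and fell in none. Insig1, which restrains the transcription factor SREBP, rose 2.35-fold to 341 ± 209 CPM, against 137 ± 63.5 CPM (adjusted p = 0.00161), and Tm7sf2, a sterol reductase, 2.14-fold. The count was 2 without experiment 2 and 3 or 4 without P day 4 replicate 2, P day 2 replicate 1, 2 or 3, or experiment 1, 3 or 4. Enzymes that break down branched chain amino acids were higher in 13 of 21 cases. Bckdha, a subunit of the committed dehydrogenase, rose to 29.1 ± 11.5 CPM on day 4, against 14.2 ± 7.13 CPM on day 2 (2.11-fold, adjusted p = 4.53e-05), and Pccb, of propionyl-CoA carboxylase, 1.85-fold. The member that fell was Bcat1, the cytosolic transaminase of the first step (2.77-fold lower, adjusted p = 0.00114). Peroxisome genes rose in 10 of 29 cases and fell in none, and genes of fatty acid oxidation rose in 2 of 25, beside 9.94% of all genes tested. The peroxisome count was 4 to 6 without P day 4 replicate 2 or 5, P day 2 replicate 1, 2, 3 or 4, or experiment 2, 3 or 4. The oxidation count was 0 without P day 4 replicate 2 or experiment 2 or 3, and 1 without P day 4 replicate 5, P day 2 replicate 2 or 3, or experiment 4. It was 3 without P day 4 replicate 6 or experiment 6, 5 without experiment 5 and 7 without P day 2 replicate 5.

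Of 46 nuclear genes of oxidative phosphorylation, 13 passed as higher, 0 as lower and 33 did not pass. Over all genes tested, 9.94% passed as higher and 10.2% as lower. The median log2 difference of the 46 was 0.279. Cox4i1, of cytochrome c oxidase, rose to 351 ± 102 CPM on day 4, against 239.6 ± 95.1 CPM on day 2 (1.49-fold, adjusted p = 0.00476). Sdha, of succinate dehydrogenase, rose 1.46-fold (adjusted p = 0.00449). This count was 1 without the P libraries of experiments 2 and 3 and 14 with those alone. It was 4 to 8 without experiment 2 or 4, P day 4 replicate 2 or 5, or P day 2 replicate 2 or 4, but 20 without P day 4 replicate 6 and 22 without P day 2 replicate 5. In the tricarboxylic acid cycle list 6 of 23 genes rose, beside 9.94% of all genes tested. Its count was 1 without experiment 2 and 11 without P day 2 replicate 5. It was 3 without experiment 4, P day 4 replicate 2, or P day 2 replicate 2 or 3. That count was 0 without the P libraries of experiments 2 and 3 and 8 with those alone. Mitochondrially encoded messenger RNAs did not pass in any of the 7 cases kept. Their median log2 ratio was -1.56 in experiment 1 and 1.30 in experiment 3, the widest range among the lists. The other 6 of the 13 were not kept for the test.

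Beside 9.94% and 10.2% of all genes tested, 5 of the 17 thermogenic genes kept were higher and 0 lower. They were Cox8b, Adrb3, Kcnk3, a potassium channel (3.34-fold), Ppara, the receptor that drives fat oxidation (2.86-fold), and Ppargc1a. Ppargc1a, a coactivator of mitochondrial biogenesis, had lowest, median and highest levels of 0.336, 1.71 and 38.1 CPM on day 4 and 0.249, 0.926 and 12.3 CPM on day 2 (2.33-fold, adjusted p = 0.0321). Experiments 2 and 3 held its high values on both days, and the call was lost without experiment 1, 2 or 3, without P day 4 replicate 2, 3 or 4, without P day 2 replicate 1, 2 or 3, and in DESeq2. The call of Ppara was lost without experiment 2, 3 or 4, P day 4 replicate 2 or 3, or P day 2 replicate 1, 2, 3 or 4. The thermogenic count was 3 without experiment 2, P day 4 replicate 2 or 3, or P day 2 replicate 1 or 2. Without the P libraries of experiments 2 and 3 together, 2 were higher and 1 lower, and with those alone 5 and 0. Ucp1, the uncoupling protein, was listed at 0 in all 6 libraries of day 4 and reached at most 0.0709 CPM on day 2. Cidea, a droplet protein of brown fat, reached 0.63 and 0.203 CPM and did not pass (adjusted p = 0.57). In glucose uptake and insulin signalling 4 of 18 genes rose, beside 9.94% of all genes tested. The 4 included Igfbp4, which binds insulin-like growth factors (2.56-fold, adjusted p = 0.000271).

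**Figure D4:**
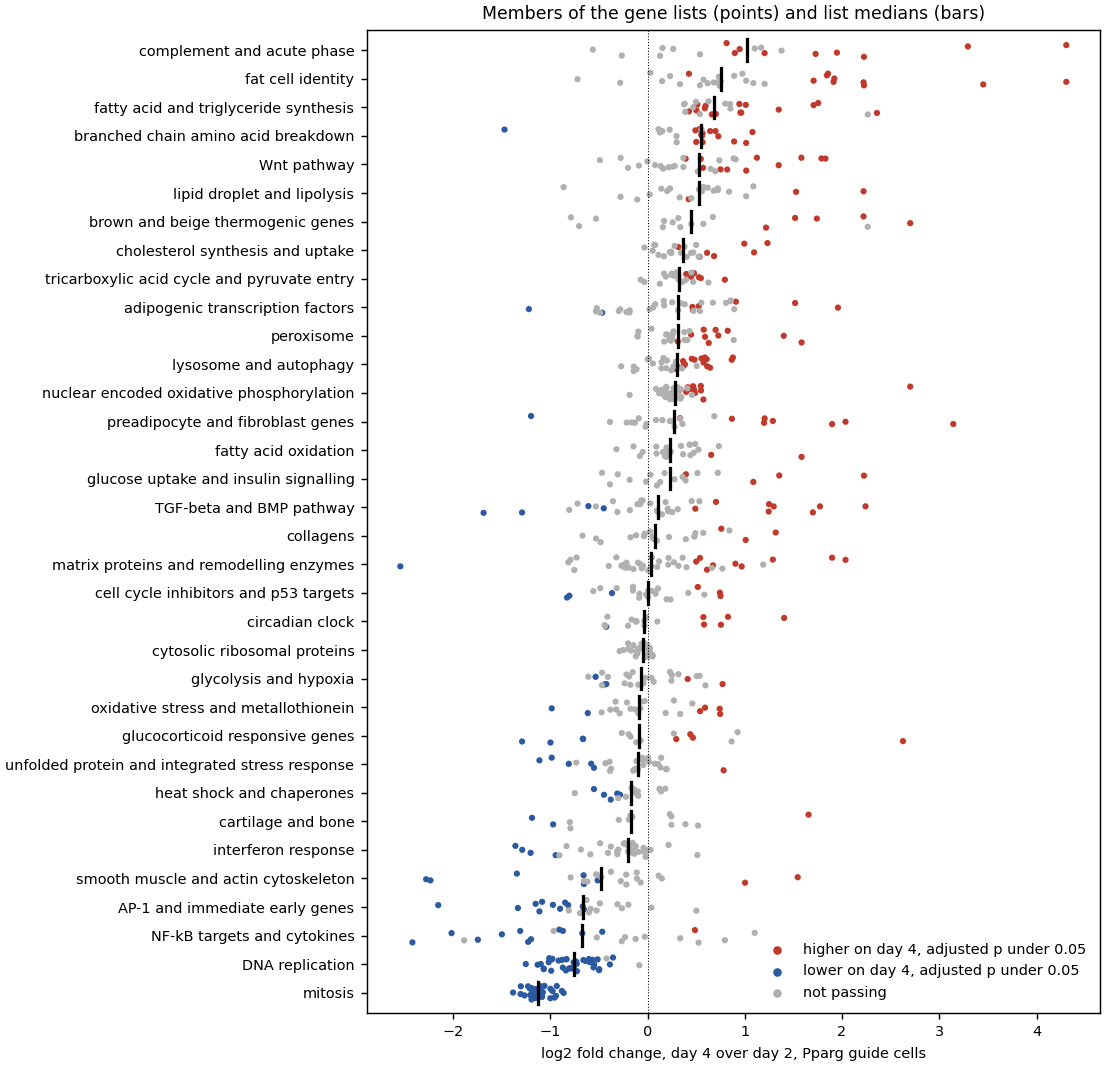
Log2 differences of day 4 over day 2 in P cells for the members of 34 gene lists. Each point is a gene, red where it passed as higher, blue where it passed as lower and grey otherwise, and black bars are list medians. The medians run from -1.13 for mitosis to 1.02 for complement and acute phase.

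Some stromal and secreted genes were higher on day 4. Of 24 preadipocyte and fibroblast genes, 8 were higher and 1 lower (median log2 0.268), beside 9.94% and 10.2% of all genes tested. Gas6, a ligand of TAM receptors, rose to 173 ± 55.3 CPM, against 78.9 ± 30.6 CPM (2.3-fold, adjusted p = 8.28e-05). Pdgfra, a receptor that marks fat progenitors, rose 1.82-fold (adjusted p = 0.00181), and Dcn, the proteoglycan decorin, 3.73-fold. The count of rises was 5 without P day 4 replicate 4 or experiment 6, and 0 with the P libraries of experiments 2 and 3 alone. Dlk1, which marks preadipocytes and restrains differentiation, reached at most 0.726 CPM on day 4 and 0.63 CPM on day 2 (adjusted p = 0.693). In the matrix list 9 of 42 genes rose and 1 fell, beside 9.94% and 10.2% of all genes tested. The median log2 difference was 0.0395, with 24 members above 0 and 18 below. Mmp2, a gelatinase, had lowest, median and highest levels of 391, 447 and 592 CPM on day 4 and 155, 264 and 329.9 CPM on day 2, with no overlap (1.87-fold, adjusted p = 1.97e-05). Adamts2, which trims procollagens, rose 1.96-fold and Timp2, an inhibitor of matrix proteases, 1.59-fold. Of 20 collagen genes 3 rose, beside 9.94% of all genes tested (median log2 0.0789), among them Col3a1 (2.01-fold, a call lost without experiment 4 or 6, P day 4 replicate 4 or P day 2 replicate 3), and Col1a1 was at 1869 ± 799 CPM on day 4 and 2073 ± 696 CPM on day 2 (adjusted p = 0.443). The collagen count was 0 without P day 2 replicate 3 or experiment 4 or 6, and 1 without P day 4 replicate 2, 3 or 5, P day 2 replicate 4 or 6, or experiment 2 or 3. It was 6 without P day 2 replicate 5.

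Complement and acute phase genes rose in 9 of 18 cases and fell in none, with the highest median of any list (log2 1.02), and 11 were higher in 6 of 6 experiments. Beside Cfd these included C1ra, a protease of the classical pathway, at 113 ± 41.4 CPM on day 4 and 61.5 ± 22 CPM on day 2 (adjusted p = 1.72e-05). Orm1, an acute phase lipocalin, rose 4.67-fold, but its reads may be shared with its close copy Orm2. Lysosome and autophagy genes rose in 15 of 32 cases and fell in none, with a median log2 difference of 0.298. Map1lc3b, the LC3 protein of autophagosomes, was at 108, 119 and 129 CPM on day 4 and 59.9, 80.8 and 89.7 CPM on day 2, without overlap (1.53-fold, adjusted p = 1.69e-05). Hexa, a lysosomal hexosaminidase, rose 1.52-fold, also without overlap, and Lamp2 and Ctsd 1.47-fold and 1.49-fold. Of 30 Wnt pathway genes 11 rose and 0 fell. The leading ones were the secreted inhibitors Sfrp1 (2.55-fold, adjusted p = 0.00066) and Sfrp2 (3.45-fold), the intracellular inhibitor Nkd1 (2.02-fold) and the receptor Fzd4 (1.68-fold). Without experiment 4, 9 lysosomal and 6 Wnt genes passed, and 7 Wnt genes passed without experiment 6 or P day 2 replicate 3. In the TGF-beta and BMP pathway 8 of 33 rose and 4 fell, beside 9.94% and 10.2% of all genes tested. In that list Acvr1c, the receptor ALK7, was up 4.73-fold. Inhba, the activin A subunit, was at 21.2 ± 20.1 CPM on day 4 and 70.3 ± 75.6 CPM on day 2 (adjusted p = 0.00143). There the rises were 5 without experiment 4, and the falls 1 or 2 without experiment 1, 3, 4 or 6 or P day 2 replicate 3 or 4.

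The 12 genes with the largest falls under the same rule included Ptgs2, Tmem171, Ccn2, Ankrd1, Fosl1, Hbegf, Areg, Lif, Fgd3, P2rx7 and Nipal1. Ptgs2 (ENSMUSG00000032487, GRCm38 chromosome 1, 150100031 to 150108227, plus strand), the inducible cyclooxygenase, had lowest, median and highest levels of 5.03, 27.3 and 229 CPM on day 4 and 30.2, 132 and 1219 CPM on day 2. It was 5.35-fold lower (log2 -2.42 ± 0.55 (SE), adjusted p = 0.00168). All 12 overlapped between the days. Of all genes tested, only 0.605% had every day 4 library below every day 2 library. For Ptgs2 experiment 4 was highest and experiment 2 lowest on both days. Ccn2, the connective tissue growth factor, fell 4.85-fold and Ankrd1, a cardiac ankyrin repeat protein that responds to YAP, 4.7-fold. The EGF receptor ligands Hbegf and Areg fell 4.34-fold and 4.22-fold, and the cytokine Lif 4.05-fold. Fgd3, an exchange factor for Cdc42, fell 3.95-fold, P2rx7, an ATP-gated channel, 3.85-fold, Tmem171 4.86-fold and Nipal1 3.83-fold. Tmem171 was at 11.2 CPM in P day 4 replicate 4 and at 0 to 0.756 CPM in the other day 4 libraries. Areg was at 1.79 CPM in that replicate and at 0.0605 to 0.420 CPM in the others. None of the 12 passed when the experiment was left out of the model, nor with the libraries of experiments 2 and 3 alone. Without experiment 1 Tmem171 and Ccn2 lost the call, without experiment 6 Tmem171 and Ankrd1, and without P day 4 replicate 5 or 6 or P day 2 replicate 6 Tmem171. Without the P libraries of experiments 2 and 3 Tmem171, Ccn2, Ankrd1, Fgd3 and P2rx7 lost it.

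AP-1 and immediate early genes fell in 11 of 23 cases and rose in none (median log2 -0.667). Fosl1, an AP-1 subunit, had lowest, median and highest levels of 1.84, 7.81 and 34.9 CPM on day 4 and 10.6, 32 and 149 CPM on day 2 (4.45-fold lower, adjusted p = 0.000872). Myc fell 1.87-fold (adjusted p = 0.0037), Ier3 2.22-fold and Junb 1.96-fold, Junb's call being lost without experiment 1. Fos, Jun and the Nr4a genes did not pass. TGANTCA, the AP-1 site, was in 0 of the 15 promoters of this list that could be matched and in 7.98% of all. That motif was chosen after the values were seen. NF-kB targets and cytokines fell in 11 of 23 cases, with Tnfaip3, a feedback inhibitor, down 2.83-fold (adjusted p = 0.000677). Vcam1, an adhesion molecule, was the member that rose (1.4-fold, adjusted p = 0.00812). Of 23 smooth muscle and actin genes, 6 fell and 2 rose, beside 10.2% and 9.94% of all genes tested. Those that fell included Ccn1, a matricellular protein, and Actn1, an actin crosslinker, and Acta2, smooth muscle actin, was at 97.5, 2029 and 5223 CPM on day 4 and 351, 2629 and 3688 CPM on day 2 without passing (adjusted p = 0.48). The AP-1 count was 5 without experiment 1, 6 without experiment 6 and 7 without replicate 1 of either day. The NF-kB count was 7 without experiment 1, 3 or 4, P day 4 replicate 5 or P day 2 replicate 1, and the actin count of falls 3 without experiment 1. None of the 3 lists had a member passing with experiments 2 and 3 alone.

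Other lists moved little or both ways. Over all genes tested, 9.94% passed as higher and 10.2% as lower. Of 35 interferon response genes 4 fell and 0 rose, with Isg15 at 95.3 ± 50.6 CPM on day 4 and 124 ± 58.1 CPM on day 2 (adjusted p = 0.29), and that count was 0 without experiment 4 and 1 or 2 without experiment 2 or 6, P day 4 replicate 2, 4 or 5, or P day 2 replicate 3, 4 or 6. Of 30 genes of the unfolded protein and integrated stress responses 5 fell and 1 rose, and of 17 heat shock genes 5 fell. The falls were 0 to 3 in the stress responses without experiment 1, 3, 4, 5 or 6, P day 4 replicate 1, 4, 5 or 6, or P day 2 replicate 1, 3, 4 or 6. They were 1 to 3 in the heat shock list without the same experiments, P day 4 replicate 1, 2, 4, 5 or 6, or P day 2 replicate 1, 2, 3, 4 or 6. Glucocorticoid responsive genes rose in 4 and fell in 4 of 16 cases. The rises were 2 without experiment 2 or 4, P day 4 replicate 3 or 5, or P day 2 replicate 2 or 4, and the falls 2 without experiment 1, 3, 4, 5 or 6, P day 4 replicate 2, 5 or 6, or P day 2 replicate 1, 3, 4 or 6. Fkbp5, a target of the glucocorticoid receptor, fell to 11.7 ± 4.45 CPM, against 22.5 ± 6.22 CPM (adjusted p = 6.74e-05). Clock genes rose in 5 of 17 cases and fell in 1, led by Rora (1.69-fold, adjusted p = 5.73e-05), with 3 left without experiment 2, 4 or 6 or P day 2 replicate 6. The fall was lost without any of experiments 2 to 6, P day 4 replicate 2, 5 or 6, or P day 2 replicate 3, 4 or 6, and 2 genes fell without P day 4 replicate 1. Genes of lipid droplets and lipolysis rose in 3 of 23 cases, beside 9.94% of all genes tested, and fell in none. Their count was 1 without P day 2 replicate 2, 3 or 6 or experiment 2 or 4, 5 without P day 4 replicate 6 or experiment 5, and 7 without P day 2 replicate 5. In glycolysis and hypoxia 2 of 26 rose and 3 fell, in oxidative stress and metallothioneins 4 of 22 rose and 2 fell, and in cartilage and bone 1 of 14 rose and 2 fell. The glycolysis rises were 0 without experiment 6, 1 without experiment 4 or P day 2 replicate 4, and 4 without P day 2 replicate 5. The oxidative stress rises were 2 without experiment 4, and its falls 0 without experiment 3 and 1 without experiment 1, 4 or 6, P day 4 replicate 5, or P day 2 replicate 1, 3 or 4. The cartilage falls were 1 without experiment 3. Among markers of other cell types that were kept, 1 of 7 skeletal muscle genes rose and 1 fell, 1 of 5 macrophage and 1 of 6 endothelial markers rose, and 1 of 6 epithelial markers fell. None of 30 cytosolic ribosomal protein genes passed, with a median log2 difference of -0.0487.

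EV cells, which had the drug and no guide, changed over the same days in much the same number of genes: 3427 (20.1%) passed, 1769 higher (10.4%) and 1658 lower (9.74%) on day 4. Of the 3434 genes that passed in P, 2239 (65.2%) passed the same way in EV, which is 65.3% of the EV genes, and 2 passed in opposite directions. The test of the difference between the changes gave 0 genes at an adjusted p under 0.05 in edgeR and 0 in DESeq2, with 432 and 477 at an unadjusted p under 0.05 (2.54% of genes in edgeR). For Fasn the change was 2.55-fold in P and 1.05-fold in EV, a difference of log2 1.28 ± 0.44 (SE, unadjusted p = 0.00605, adjusted p = 1). Cfd rose 19.8-fold in P and was at 0.477 ± 0.645 CPM on day 4 and 0.0667 ± 0.068 CPM on day 2 in EV, where it did not pass (5.76-fold), a difference of log2 1.78 ± 1.54 (SE, unadjusted p = 0.256). Ptgs2 fell 5.35-fold in P and 4.4-fold in EV, and Plk1 2.61-fold and 1.99-fold. All 12 of the genes with the largest falls and 7 of the 12 with the largest rises also passed in EV. Cfd, Agmo, Steap4 and Ces1f were among the 5 rises that did not. The 6 genes with the smallest p for the difference were Itih4, Kcnj14, Gm31305, Lrig1, Tppp and Des. Itih4, of the inter-alpha-trypsin inhibitor family, was at 4.49 ± 5.84 CPM on day 4 and 1.16 ± 1.28 CPM on day 2 in P and at 0.217 ± 0.136 and 0.384 ± 0.246 CPM in EV (difference log2 2.79 ± 0.67 (SE), unadjusted p = 0.000158, adjusted p = 1).

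Among the lists, 35 mitosis and 38 replication genes passed as lower in EV, beside 35 and 37 in P. Synthesis of fatty acids and triglycerides had 15 genes higher in P and 4 in EV (median log2 0.681 and 0.241), oxidative phosphorylation 13 and 1 (0.279 and 0.0323), cholesterol synthesis 7 and 0 (0.362 and 0.115) and Wnt 11 and 16 (0.531 and 0.752). No member of any list passed the test of the difference, so these counts are not shown to differ.

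**Figure D5:**
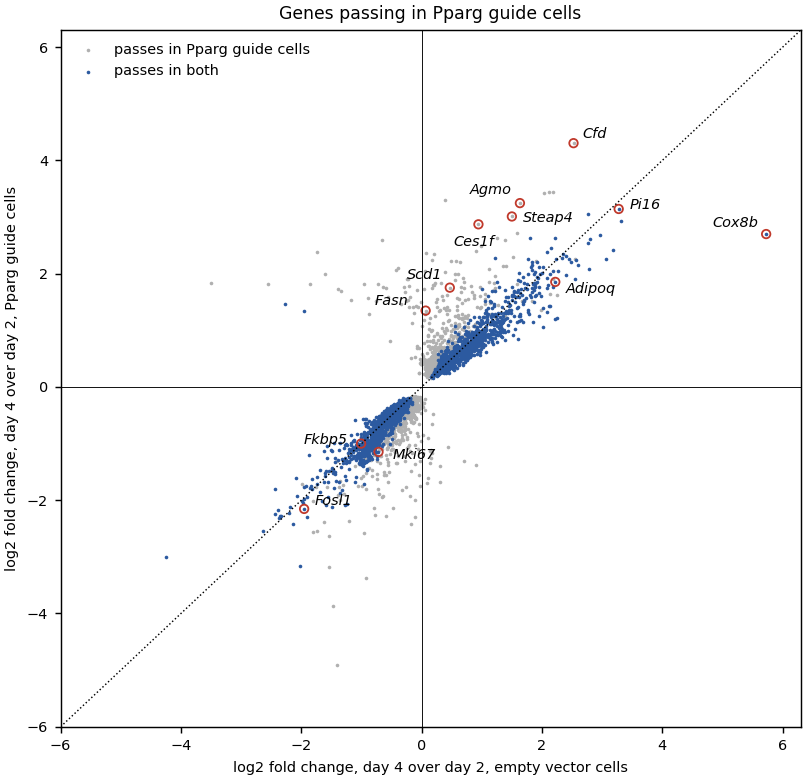
Log2 differences of day 4 over day 2 in P cells (vertical) against those in EV cells (horizontal) for the 3434 genes that passed in P. Blue genes passed in both and grey genes in P; the dotted line marks equal change and circles mark named genes. Most genes lie in the lower left and upper right, with Fasn and Scd1 near 0 in EV; Cox8b was at 0 in all EV libraries of day 2, so its horizontal position rests on the prior count of the model.

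PY cells, with the Ybx1 guide added, had 970 genes (5.70%) that passed, 442 higher (2.6%) and 528 lower (3.1%) on day 4, with 5 libraries on day 2. PY day 2 replicate 3 had 3.382 M counts, the fewest in the series, with 43.7% of them in its top 10 genes, whereas the other 4 PY libraries of day 2 had 15.1 to 28 M and 6.81% to 14%. Without it, 586 genes passed in PY (3.44%), 259 higher and 327 lower. The change in PY did not differ from that in P for any gene at an adjusted p under 0.05 in edgeR or DESeq2, with 210 and 218 genes at an unadjusted p under 0.05 (1.23% of genes in edgeR), and 0 passed without PY day 2 replicate 3, with 226 at an unadjusted p under 0.05. Cfd rose 24.6-fold in PY and 19.8-fold in P (unadjusted p of the difference 0.584), and Fasn 2.84-fold and 2.55-fold. The fold of Adipoq was 3.61 in PY, where it did not pass (adjusted p = 0.0814), and 3.62 in P. All 35 mitosis genes passed as lower in PY, as in P, also without that library. Ptgs2 was at a fold of 0.372 in PY (adjusted p = 0.155) and 0.187 in P, and the difference had an unadjusted p of 0.213. AP-1 genes passed as lower in 1 of 23 cases in PY (0 without PY day 2 replicate 3), beside 11 in P, and NF-kB targets in 0 of 23, beside 11, while no member passed the test of the difference. The 6 smallest p for this difference were those of Gm12404, Gm43127, Zmynd10, Gm19610, 2010110E17Rik and Gm48455.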

How the data were processed

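Counts were deposited as 1 table of whole-number counts per gene for the 51 libraries, with no column of other samples. Per the submitters' processing notes the tools were STAR 2.5.3a, featureCounts 1.5.2 and edgeR 3.22.0 with builds mm10 and GRCm38; per the labels' protocols the kit is stranded with removal of ribosomal RNA. The annotation release and the handling of strand and of reads with several matches are not given in the sources used here, so overlapping genes and close copies are uncertain. Gene symbols came from GENCODE M21, which held 53706 of the 53801 identifiers.

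All 51 libraries in 9 groups were fitted with edgeR 4.0.16 (R 4.3.3, limma 3.58.1) by the quasi-likelihood test, with group and experiment as terms, TMM scaling and filterByExpr (minimum count 10, total 15), which kept 17015 genes. P-values were adjusted by Benjamini-Hochberg over them, the threshold is 0.05, and CPM use TMM library sizes. The experiment numbers pair the libraries. Deviations from group means correlated at 0.244 to 0.691 in the 6 pairs. The 30 other combinations had a median of -0.13, which centring on group means in itself lowers. Their highest value, 0.549, was above the pairs of experiments 1 and 3 (0.244 and 0.453). Of the 6 day 4 libraries, 5 correlated best with the day 2 library of their own experiment. The labels do not say whether replicates came from separate cultures. P-values measure the spread of these libraries left after group and experiment are fitted, estimated over all 51. No pair of P replicates was alike within counting noise. Tested on simulated data for P day 4 against P day 2 over 17015 genes, 66% of 50 genes changed 1.5-fold, 86% changed 2-fold and 100% changed 3- or 5-fold were recovered, with 9 false calls. The counts were drawn from the fitted model with the same day change in every experiment, and the changed genes averaged at least 1 CPM. The rates therefore do not cover scarcer genes or changes that differ between experiments.

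Named were the targeted genes, a panel of 24, the 12 largest rises and falls that passed with a mean of at least 1 CPM, a symbol that is not a Gm number or a Rik clone name and the same direction in 6 experiments, up to 4 passing members of each of 39 lists by smallest adjusted p, and the 6 smallest p of each difference test. Cdc20, Ccnb2, Rfc3, E2f1, Fos, Jun, the Nr4a genes and Vcam1 were named after their values were seen. Some named genes are not reported here. The members, lists and motifs were chosen with earlier results of these data known. Alternatives were other blocks, RLE scaling, filters, DESeq2 1.42.0 and left-out libraries. Promoters are those of RefSeq genes with 1 promoter in the table.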

Additional observations from a re-analysis of the deposited data

Results flagged for a closer look

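In 10 of 100 groups of 6 values checked, the highest or lowest library stood apart from the other 5, by Dixon's test of the gap to the nearest of them against the group's range, at its 95% critical value. Chance flags about 1 in 20 such groups. For genes the test used log2 of CPM with 0.5 added, whereas the values given here are CPM. Pparg was at 370 CPM in P day 4 replicate 5, against 202 to 236 CPM in the other day 4 libraries. Retn was at 0.772 CPM in P day 2 replicate 5, with the others at 0.105 to 0.284 CPM. Cebpb was at 6.11 CPM in P day 4 replicate 1, with the others at 21.02 to 35.6 CPM. Pi16 was at 10.3 CPM in P day 4 replicate 6, with the others at 2.85 to 4.66 CPM.

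P day 4 replicate 4 held 3 of the 10: Tmem171 at 11.2 CPM (others 0 to 0.756), Areg at 1.79 CPM (others 0.0605 to 0.420) and Lif at 2.96 CPM (others 0.335 to 0.841). All are genes that fell by day 4. P day 2 replicate 1 held Ptchd1 at 2.77 CPM (others 0.105 to 0.540) and H19 at 8.27 CPM (others 0.0703 to 0.819). Agmo was at 0.756 CPM in P day 2 replicate 3, with the others at 0.178 to 0.325 CPM.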

How the results depend on the processing

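The count of 3434 genes was 217 without the replicate block (94 higher and 123 lower, all 217 shared), so nearly every call rests on comparing days within experiments. With a block of experiment within transfection it was 2504, with the compared groups only 3016, with RLE size factors 3488, without a filter 2490, with a stricter one 3522 and in DESeq2 3830. Leaving out P libraries or experiments gave 2143 to 3872. Settings chosen after seeing the data were more drastic: 1686 passed without the P libraries of experiments 2 and 3 (970 higher and 716 lower, 57.5% higher, against 49.2%), 791 with those alone (306 and 485, 38.7%), and 1901 (1168 and 733, 61.4%) when P day 4 of experiment 1, which stood apart on the third principal component, was left out too. PY day 2 replicate 3 was also left out after seeing the data, which gave 3506 genes in P. The differences between P and EV and between PY and P gave 0 genes in each of these settings. Of 147 named genes that passed, 19 kept the call in every alternative, 118 lost it without the block and none reversed. Genes that had not passed changed sign as follows, in log2. Fabp4 ran from -0.0546 to 0.536 over left-out libraries, was below 0 at -0.0181, -0.0215 and -0.0546, and was -0.272 and -0.415 without the libraries of experiments 2 and 3 and with P day 4 of experiment 1 also left out. Pck1 was -0.0303 and -0.165 in the same settings, and Acta2 0.0689 in the second. With experiments 2 and 3 alone Pparg was 0.0767 and Dlk1 -0.200. The causes were not tested. Lep and Ucp1 were too scarce to be kept for the test.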
